A study of Mus musculus with 4 samples.

Results

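The genes described here are 35 genes of protein folding and quality control in the endoplasmic reticulum (ER). Their transcripts were followed in wild-type and Smg6-deficient mouse embryonic stem (ES) cells. These genes were chosen as a list of gene symbols, with earlier results of these data known, and matched to Ensembl identifiers. All 35 were found among the 37224 identifiers of the deposited tables, and all 35 had enough counts to be tested among 20895 genes. The list holds 18 chaperones and foldases, 4 sensors and transcription factors, and 13 genes of ER-associated degradation (ERAD). RNA-seq was made from ES cells in 2 groups, with 2 libraries each of wild-type (normal) and Smg6-deficient cells. The Smg6 protein cuts mRNAs in nonsense-mediated decay (NMD), a pathway that removes messages with a stop codon recognised as premature. The labels give no allele, strain, sex, passage or treatment, and do not say whether the libraries of a group are separate cultures or clones. The p-values thus rest on the spread between these libraries, drawn toward a trend over all tested genes, and that spread may be technical.

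Proteins that enter the secretory pathway fold in the ER with the help of chaperones, which bind unfolded stretches, and of foldases, which form disulfide bonds. Proteins that fail to fold are passed by ERAD through a membrane complex to the cytosol, where they are ubiquitinated and degraded. When unfolded proteins accumulate, ER membrane sensors start the unfolded protein response (UPR), in which Atf6 and spliced Xbp1 raise the transcription of chaperone and ERAD genes, many of them through a promoter element called the ER stress element (ERSE).

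The promoter letters of these genes are given first, since the results below refer back to them. The list was not chosen on these letters. It does hold genes of the kind that the UPR raises through ERSE, so the shares are not independent of the choice. RefSeq promoter windows (GRCm38.p6, 250 bases before to 50 after the annotated start) were held for 28 of the 35 genes, in 29 windows. Both strands were searched for ERSE (CCAAT, 9 free bases, CCACG), ERSE-II (ATTGG, 1 free base, CCACG), the core of the UPR element (TGACGTGG) and a C/EBP-ATF element (TGATGNAAT). No matches in these genes overlapped. ERSE was found in 9 of the 28 genes, against 0.137% of all 27025 genes with a window. ERSE-II was found in 2 of the 28, against 0.0444% of genes. The UPR element core was found in 1 (Vcp), against 0.714%, and the C/EBP-ATF element in 0, against 1.08%. A match is a description of these letters, and a window without one says nothing about a factor.

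Each match is written below in the orientation of the element, with its fixed letters in capitals, so that the free positions can be compared between genes. Positions count from the annotated start, the base before it being -1. ERSE stood in 7 of the 14 chaperone and foldase windows and in 2 of the 11 ERAD genes with a window. ERSE-II stood in 1 gene of each of these groups.
Hspa5 (-65 to -47): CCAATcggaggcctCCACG
Hsp90b1 (-212 to -194): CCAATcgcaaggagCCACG
Hsp90b1 (-107 to -89): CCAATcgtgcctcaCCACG
Calr (-162 to -144): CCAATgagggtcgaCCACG
Canx (-145 to -127): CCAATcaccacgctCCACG
Pdia6 (-98 to -80): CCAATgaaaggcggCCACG
Dnajc3 (-105 to -87): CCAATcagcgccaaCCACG
Creld2 (-126 to -108): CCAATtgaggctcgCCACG
Syvn1 (-44 to -26): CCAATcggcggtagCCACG
Derl3 (-156 to -138): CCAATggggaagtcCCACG
Herpud1, ERSE-II (-52 to -42): ATTGGgCCACG
Dnajb11, ERSE-II (8 to 18): ATTGGcCCACG

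The 250 bases before the start are shown for the 3 ERAD genes that hold an element, and for Hspa5, the best-known ERSE gene, for comparison. The element is in capitals, and in Derl3 it reads on the opposite strand.
Herpud1, chr8:94386179-94386428, plus strand: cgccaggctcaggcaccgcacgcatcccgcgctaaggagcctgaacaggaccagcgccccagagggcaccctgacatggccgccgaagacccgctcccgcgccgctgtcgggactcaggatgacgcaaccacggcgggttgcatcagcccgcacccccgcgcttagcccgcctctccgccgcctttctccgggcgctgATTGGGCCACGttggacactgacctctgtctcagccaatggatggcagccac
Syvn1, chr19:6046326-6046575, plus strand: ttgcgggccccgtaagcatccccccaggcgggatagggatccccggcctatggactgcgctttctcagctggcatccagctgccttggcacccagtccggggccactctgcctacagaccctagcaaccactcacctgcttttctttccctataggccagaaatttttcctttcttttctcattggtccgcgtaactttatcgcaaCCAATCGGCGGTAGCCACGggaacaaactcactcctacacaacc
Derl3, chr10:75893148-75893397, plus strand: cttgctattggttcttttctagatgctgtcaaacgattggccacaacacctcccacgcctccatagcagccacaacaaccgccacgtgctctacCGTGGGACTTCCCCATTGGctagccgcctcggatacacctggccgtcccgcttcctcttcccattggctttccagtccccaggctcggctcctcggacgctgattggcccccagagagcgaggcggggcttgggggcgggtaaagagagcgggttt
Hspa5, chr2:34771840-34772089, plus strand: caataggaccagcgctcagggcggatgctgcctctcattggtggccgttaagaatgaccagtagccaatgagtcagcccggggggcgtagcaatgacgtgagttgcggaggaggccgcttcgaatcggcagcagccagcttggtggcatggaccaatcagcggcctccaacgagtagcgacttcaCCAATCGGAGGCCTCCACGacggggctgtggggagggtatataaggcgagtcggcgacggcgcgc

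Count totals lay between 130888768 and 155391181 reads per library. CPM below are counts divided by the library size in megareads, scaled by TMM (trimmed mean of M-values), and RPKM are the authors' values, which also divide by gene length. Fold changes compare Smg6-deficient with wild-type libraries on the log2 scale, and each adjusted p is edgeR's, corrected by Benjamini-Hochberg over all 20895 genes with 0.05 as the threshold. Across all tested genes 39.7% passed, 20.5% higher and 19.2% lower, with a median log2 fold change of 0.008. The labelled cell type was checked against 10 ES cell markers, of which Pou5f1 was at 936.4 and 845.5 CPM in wild-type and 631.9 and 632.9 CPM in Smg6-deficient libraries (replicate 1, then 2, here and below). Of these markers 6 were lower and 2 higher. Nanog fell most, from 725.7 and 554.5 to 156.8 and 155.3 CPM (log2 fold change -2.04, edgeR adjusted p = 0.00025). Utf1 rose most (0.98, edgeR adjusted p = 0.0022). The Smg6-deficient libraries thus differ from wild type in these markers.

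Most of the ER genes did not pass the threshold, and those that changed most were ERAD genes. Of the 35, 7 rose (P4hb, Hyou1, Herpud1, Derl3, Syvn1, Erlec1 and Os9) and 2 fell (Sdf2l1 and Herpud2), together 25.7%, against the background of 39.7%. By role, 3 of 18 chaperones and foldases (16.7%), 0 of 4 sensors and 6 of 13 ERAD genes (46.2%) passed. With both directions pooled, the share of ERAD genes was therefore near the background and that of chaperones below it. By direction, 5 of 13 ERAD genes rose and 1 fell, and 2 of 18 chaperones and foldases rose and 1 fell. All tested genes stood at 20.5% higher and 19.2% lower. The difference between the roles was not tested. Median log2 fold changes were -0.07 for chaperones and foldases, 0.20 for the sensors and 0.07 for ERAD genes. The 2 groups of libraries did not overlap for 22 of the 35 genes (62.9%), against 73.2% of all tested genes. None of the 35 genes is X-linked.

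**Figure D1:**
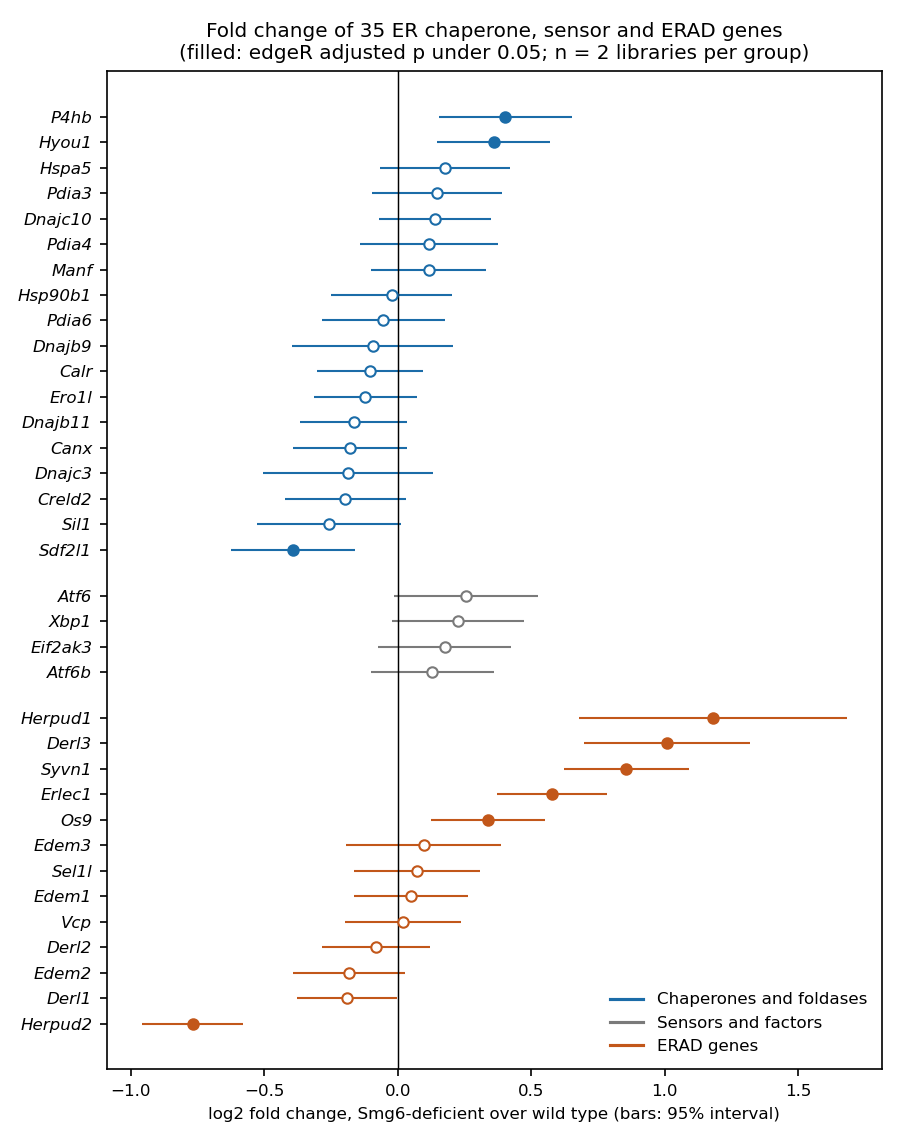
Log2 fold change (x axis, Smg6-deficient over wild type) of each gene, ordered within its role, with its 95% interval from the edgeR fit; filled points passed the threshold. Herpud1 at 1.18 and Herpud2 at -0.77 lie at the ends, and 15 of 18 chaperones and foldases lie within 0.26 of 0.

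Chaperones, among them the lectin chaperones, were the most abundant of these transcripts, and 2 of the 18 chaperones and foldases rose. Mean RPKM, which can be compared between genes, was highest for Hsp90b1 (256.3), the ER Hsp90 (Grp94), followed by Calr (246.6) and Hspa5 (239.0). Hsp90b1 stood at 1240.1 and 1218 CPM in wild-type and at 1140.0 and 1279 CPM in Smg6-deficient libraries. The groups overlapped, and its log2 fold change was -0.02 (SE 0.095, 95% interval -0.25 to 0.20, edgeR adjusted p = 0.87). On the opposite strand, 10.3% of its exon bases also belong to 1810014B01Rik, and these reads cannot be separated without strand. Hspa5 (BiP), the ER Hsp70, stood at 960.3 and 900.7 CPM in wild-type and at 979.2 and 1126 CPM in Smg6-deficient libraries. Both Smg6-deficient libraries lay above both wild-type ones, but the log2 fold change of 0.18 (SE 0.10, 95% interval -0.07 to 0.42) did not pass (edgeR adjusted p = 0.21).

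Hyou1 (Grp170), which exchanges nucleotide on BiP, stood at 279.0 and 266.1 CPM in wild-type and at 332.0 and 367.2 CPM in Smg6-deficient libraries. It rose by a log2 fold change of 0.36 (SE 0.088, edgeR adjusted p = 0.019), with no overlap between the groups. The call ended without Smg6-deficient replicate 2 (log2 fold change 0.30 at an edgeR adjusted p of 0.19) and with a correction for gene length (0.23, edgeR adjusted p = 0.085). Sil1, which does the same for BiP and is the least abundant chaperone here at a mean RPKM of 11.0, had a log2 fold change of -0.26 (95% interval -0.53 to 0.01, edgeR adjusted p = 0.12). The values of these exchange factors thus lay on opposite sides of 0, and only that of Hyou1 passed.

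The J-domain cochaperones of BiP did not pass. Dnajb11 (ERdj3), Dnajc3 (p58IPK), Dnajb9 (ERdj4) and Dnajc10 (ERdj5) had log2 fold changes of -0.16, -0.19, -0.09 and 0.14, with edgeR adjusted p from 0.16 to 0.59. Dnajc3 passed downward when the gene length correction was joined to the replicate block (-0.27, edgeR adjusted p = 0.018). Sdf2l1, a partner of Dnajb11 in the ER, was the only chaperone gene to pass downward. It stood at 23.3 and 21.9 CPM in wild-type and at 16.6 and 17.8 CPM in Smg6-deficient libraries. The groups did not overlap, and the log2 fold change was -0.39 (SE 0.098, edgeR adjusted p = 0.020). The call ended without Smg6-deficient replicate 1 (-0.33, edgeR adjusted p = 0.20) or 2 (-0.43, edgeR adjusted p = 0.0895), and with the correction for gene length (-0.16, edgeR adjusted p = 0.29). Creld2 and Manf, small ER proteins induced by ER stress, had log2 fold changes of -0.20 and 0.12 (edgeR adjusted p = 0.14 and 0.34).

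The lectin chaperones, which hold glycoproteins, were high in both groups. Canx (calnexin) stood at 1162 and 1247 CPM in wild-type and at 1036 and 1091 CPM in Smg6-deficient libraries, and Calr (calreticulin) at 864.5 and 870.2 and at 790.3 and 823.6 CPM. Neither pair of groups overlapped, yet the log2 fold changes of -0.18 (SE 0.089) and -0.10 (SE 0.083) did not pass (edgeR adjusted p = 0.15 and 0.35). Canx passed without wild-type replicate 1 (-0.22, edgeR adjusted p = 0.0453) and with the correction for gene length (-0.26, edgeR adjusted p = 0.046). Their partner Pdia3 (ERp57), a disulfide isomerase, stood at 591.4, 542.3, 584.8 and 669.8 CPM in the same order of libraries and had a log2 fold change of 0.15 (edgeR adjusted p = 0.29).

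Among the foldases, P4hb rose. P4hb encodes protein disulfide isomerase, which is also a subunit of the prolyl 4-hydroxylase of collagen. It stood at 585.0 and 502.1 CPM in wild-type and at 690.9 and 746.7 CPM in Smg6-deficient libraries, without overlap. Its log2 fold change was 0.40 (SE 0.10, edgeR adjusted p = 0.023), and the call ended without Smg6-deficient replicate 2 (0.36, edgeR adjusted p = 0.13). The isomerases Pdia4 and Pdia6 and the oxidase Ero1l had log2 fold changes of 0.12, -0.05 and -0.12 (edgeR adjusted p from 0.27 to 0.69). Over the 15 chaperones and foldases that did not pass, the lowest limit of a 95% interval was -0.53 (Sil1) and the highest 0.42 (Hspa5). These limits belong to different genes, and no single interval spans them. For each gene, only changes within its own interval are not excluded by the test. Summed RPKM of the 18 genes was 1785 and 1620 in wild-type and 1655 and 1730 in Smg6-deficient libraries, and these ranges overlapped.

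**Figure D2:**
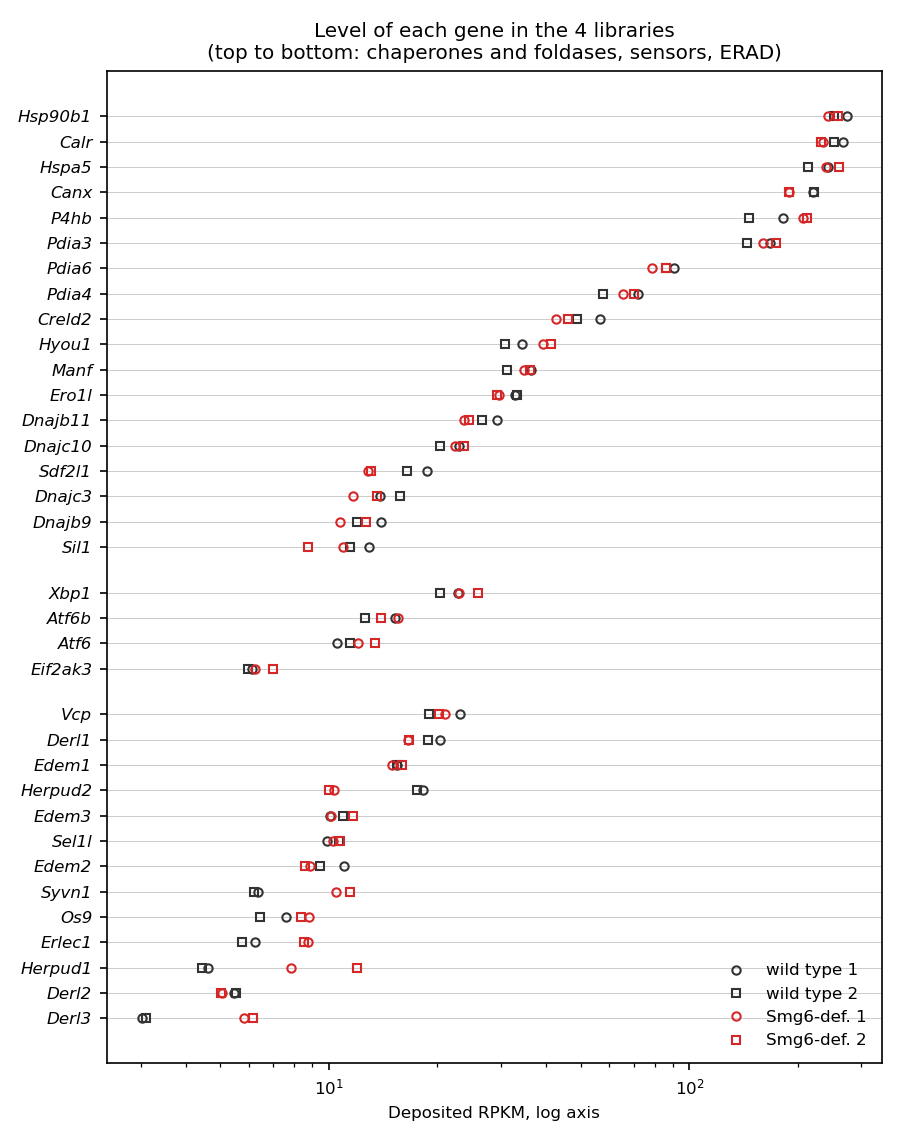
Deposited RPKM (log axis) of each gene in each library, black for wild type and red for Smg6-deficient, circles for replicate 1 and squares for replicate 2, ordered by mean level within each role. Chaperones reach 256.3 RPKM (Hsp90b1), while the 13 ERAD genes lie between 4.52 (Derl3) and 20.8 (Vcp).

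The sensors and their transcription factors had small positive values, and 0 of the 4 passed in edgeR, 0 at an unadjusted p under 0.05, and 0 by DESeq2 or limma-voom. Xbp1, whose RNA is spliced by the sensor Ire1 to give an active factor, stood at 83.6 and 79.2 CPM in wild-type and at 86.9 and 103.6 CPM in Smg6-deficient libraries. For Xbp1 the log2 fold change was 0.23 (SE 0.10, 95% interval -0.02 to 0.47, edgeR adjusted p = 0.13). A gene count does not separate spliced from unspliced Xbp1. Atf6, a sensor that becomes a transcription factor when it is cut in the Golgi, stood at 88.4 and 102.3 and at 104.8 and 122.9 CPM. Atf6 had a value of 0.26 (SE 0.11, edgeR adjusted p = 0.11) on the same log2 scale. It passed without wild-type replicate 2 (0.34, edgeR adjusted p = 0.025) and, with all libraries, when the replicate number was a block (0.26, edgeR adjusted p = 0.030).

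Atf6b, the paralog of Atf6, stood at 47.3 and 41.5 CPM in wild-type and at 50.0 and 47.2 CPM in Smg6-deficient libraries, and the groups overlapped. Its log2 fold change was 0.13 (SE 0.096, edgeR adjusted p = 0.32). It passed without wild-type replicate 1 (0.24, edgeR adjusted p = 0.041) and turned negative with the correction for length and GC content (-0.15, edgeR adjusted p = 0.20). Eif2ak3 (Perk), the kinase that slows translation in ER stress, stood at 37.4 and 38.7 and at 39.4 and 46.6 CPM. Eif2ak3 had a log2 fold change of 0.18 (SE 0.10, edgeR adjusted p = 0.22). In Eif2ak3, 8.05% of exon bases overlap the opposite-strand gene Gm43292. The 2 groups of libraries did not overlap for 3 of these 4 genes (75%), against 73.2% of all tested genes. Both Smg6-deficient libraries lay above both wild-type ones for Xbp1, Atf6 and Eif2ak3.

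The largest changes were in the ERAD complex of the ER membrane. Herpud1, a ubiquitin-like membrane protein that binds the ligase complex (ENSMUSG00000031770; GRCm38 chr8:94386438-94395377, plus strand), stood at 12.1 and 12.4 CPM in wild-type and at 21.4 and 34.3 CPM in Smg6-deficient libraries. It rose by a log2 fold change of 1.18 (SE 0.21, 95% interval 0.68 to 1.68, edgeR adjusted p = 0.0056). Both Smg6-deficient libraries lay above both wild-type ones, but in proportion they differed from each other more than for any other gene among the 35 (log2 ratio of replicate 2 to replicate 1 of 0.68). Its paralog Herpud2 (ENSMUSG00000008429; chr9:25108132-25151820, minus strand) went the other way, from 56.2 and 57.6 CPM to 33.1 and 33.7 CPM. It fell by 0.77 on the log2 scale (SE 0.079, edgeR adjusted p = 0.00081), with replicates that were close in both groups. In RPKM, Herpud2 stood above Herpud1 in both wild-type libraries (18.2 and 17.5 against 4.63 and 4.44). In the Smg6-deficient libraries the pair was at 10.35 and 9.98 against 7.86 and 11.95, so that Herpud1 was the higher of them in replicate 2.

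Syvn1 (Hrd1), the ubiquitin ligase at the centre of the complex (ENSMUSG00000024807; chr19:6046576-6053712, plus strand), stood at 34.1 and 35.3 CPM in wild-type and at 58.3 and 67.4 CPM in Smg6-deficient libraries. It rose by a log2 fold change of 0.86 (SE 0.098, 95% interval 0.62 to 1.09, edgeR adjusted p = 0.0011). Sel1l, the adaptor that holds Syvn1 in the complex, stood at 95.3 and 109.3 and at 102.3 and 112.8 CPM, with overlapping groups. Sel1l had a log2 fold change of 0.07 (95% interval -0.16 to 0.31, edgeR adjusted p = 0.59). The ligase thus rose while the call was not made for its adaptor.

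The derlins, membrane proteins of the channel, differed among themselves. Derl3 (ENSMUSG00000009092; chr10:75893413-75895941, plus strand) was the least abundant of the 35 genes, at 4.56 and 4.96 CPM in wild-type and 9.07 and 10.1 CPM in Smg6-deficient libraries. It rose by a log2 fold change of 1.01 (SE 0.13, 95% interval 0.70 to 1.32, edgeR adjusted p = 0.0018). Derl1 and Derl2 had log2 fold changes of -0.19 (SE 0.079) and -0.08 (SE 0.084), which did not pass (edgeR adjusted p = 0.0998 and 0.47). Derl1 lay lower in both Smg6-deficient libraries (60.9 and 64.7 CPM) than in both wild-type ones (72.0 and 71.1 CPM). It passed when libraries were scaled by size alone (-0.25, edgeR adjusted p = 0.044).

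The lectins that read trimmed glycans on misfolded proteins both rose. Erlec1 (ENSMUSG00000020311; chr11:30930774-30954335, minus strand) stood at 22.8 and 22.4 CPM in wild-type and at 33.3 and 34.1 CPM in Smg6-deficient libraries. Its log2 fold change was 0.58 (SE 0.086, edgeR adjusted p = 0.0029). Os9, which works beside it, stood at 34.6 and 31.2 and at 41.5 and 41.7 CPM, again without overlap. Its log2 fold change was 0.34 (SE 0.090, edgeR adjusted p = 0.025). The call of Os9 ended without Smg6-deficient replicate 1 (edgeR adjusted p = 0.13) or 2 (0.14), and its value fell to 0.09 (edgeR adjusted p = 0.47) with the correction for length and GC content. Edem1, Edem2 and Edem3, which trim those glycans, had log2 fold changes of 0.05, -0.18 and 0.10, with edgeR adjusted p from 0.15 to 0.68. Vcp (p97), the ATPase that pulls substrates from the membrane, was the highest ERAD gene at a mean RPKM of 20.8. It stood at 126.2, 110.3, 119.1 and 120.5 CPM in the same order of libraries, with a log2 fold change of 0.02 (SE 0.091, 95% interval -0.20 to 0.24, edgeR adjusted p = 0.88). Of its exon bases, 7.26% overlap 1700022I11Rik on the opposite strand.

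**Figure D3:**
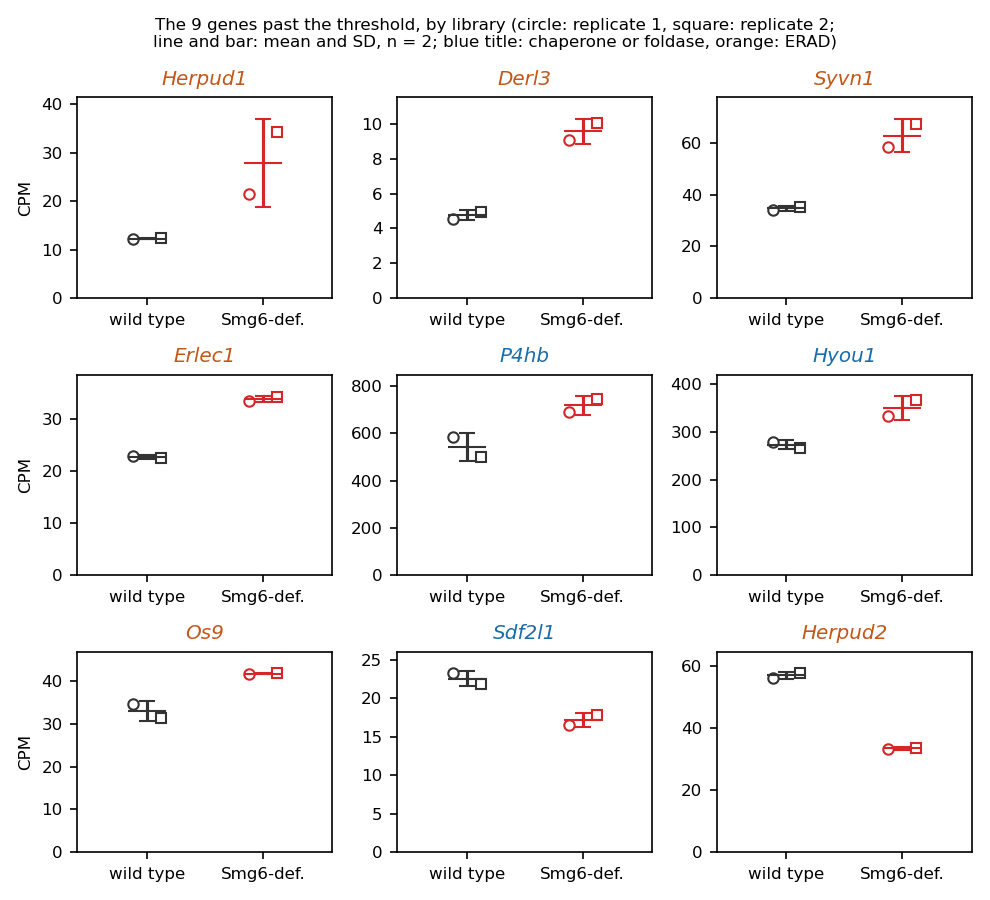
CPM in each library for the 9 genes past the threshold, circles for replicate 1 and squares for replicate 2, with the mean and SD (n = 2); each y axis starts at 0. The groups do not overlap in any panel, and the Smg6-deficient libraries of Herpud1 (21.4 and 34.3 CPM) are the farthest apart in proportion.

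Just inside the threshold lay Os9 (edgeR adjusted p = 0.025), P4hb (0.023) and Sdf2l1 (0.020), and just outside it Derl1 (0.0998), Atf6 (0.11) and Sil1 (0.12). Herpud1, Herpud2, Syvn1, Derl3 and Erlec1 passed in all 17 alternative analyses. Their log2 fold changes ranged from 0.81 to 1.49, -0.82 to -0.60, 0.58 to 0.97, 0.78 to 1.20 and 0.47 to 0.74 in that order. On log2(RPKM + 1) in limma, the calls of Hyou1, P4hb and Os9 ended (adjusted p = 0.067, 0.14 and 0.13). Leaving out a wild-type library brought calls for Creld2 and Edem2 without replicate 2 (both -0.27, edgeR adjusted p = 0.040 and 0.025) and for Pdia4 without replicate 1 (0.25, edgeR adjusted p = 0.041). The 5 genes called throughout lie between 4.52 and 14.0 in mean RPKM, below the median of 15.4 over the 35.

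The genes that hold an ER stress element did not move together. Over the roles together, 3 of these 11 genes passed, beside 39.7% of all tested genes. Of 8 chaperones and foldases with ERSE or ERSE-II, 0 passed in edgeR, 0 had an unadjusted p under 0.05, and 0 passed by DESeq2 or limma-voom. Their log2 fold changes lay between -0.20 (Creld2) and 0.18 (Hspa5), with a median of -0.13. The 3 ERAD genes with an element, Herpud1, Derl3 and Syvn1, had the 3 highest values of the list, 0.86 to 1.18. Of the 17 genes whose window held neither, 2 rose and 2 fell, with a median of 0.10 and values from -0.77 (Herpud2) to 0.40 (P4hb). These counts describe genes chosen with their fold changes known and carry no test.

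**Figure D4:**
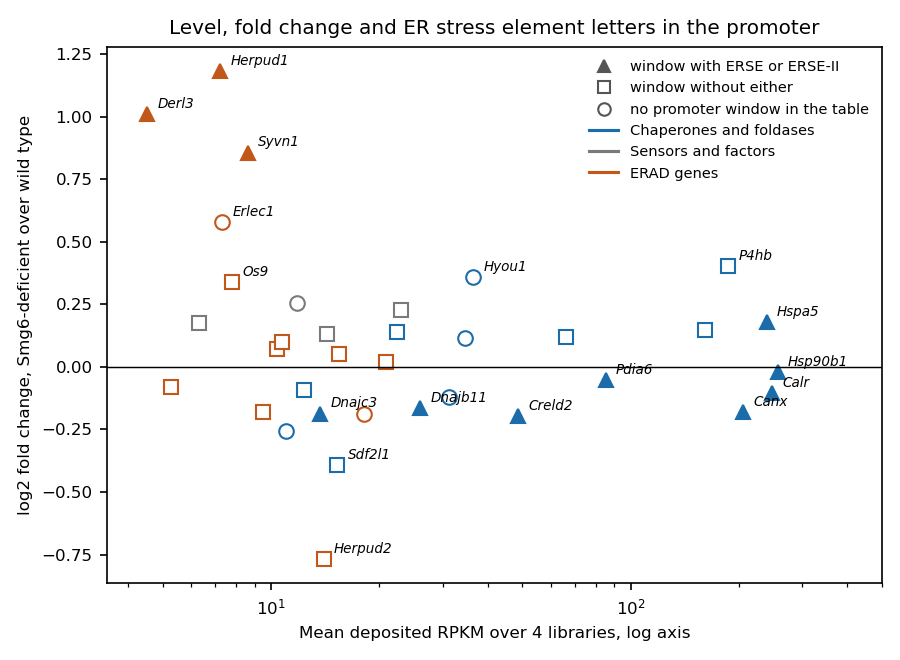
Log2 fold change against mean deposited RPKM (log axis) for the 35 genes, blue for chaperones and foldases, grey for sensors and orange for ERAD genes. Filled triangles mark a promoter window with ERSE or ERSE-II, and the 3 orange ones stand at 0.86 to 1.18 while the 8 blue ones stand between -0.20 and 0.18.

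Annotated NMD transcripts gave a second division. In GENCODE M21, 10 of the 35 genes have a coding transcript whose stop codon lies over 50 nt before a later exon junction, the usual sign of an NMD target: Hspa5, Hyou1, Pdia3, Ero1l, Atf6b, Herpud1, Derl2, Edem1, Os9 and Erlec1. Of these, 4 rose (Hyou1, Herpud1, Os9 and Erlec1), with a median log2 fold change of 0.16. Of the other 25, 3 rose and 2 fell, with a median of -0.02. Across 4226 tested coding genes with such a transcript, 33.3% were higher and 14.8% lower (median 0.15), against 20.6% and 22.3% of 12209 without (median 0.004). The 4 of 10 are thus near the share of all such genes. Gene counts do not show which transcript the reads came from. Derl3, Syvn1 and P4hb, which rose, and Herpud2 and Sdf2l1, which fell, have no transcript of this kind in the annotation.

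Within the Smg6-deficient group, replicate 2 stood above replicate 1 for nearly all of these genes. In CPM, 33 of the 35 were higher in Smg6-deficient replicate 2 than in replicate 1, all but Sil1 and Atf6b, with a median log2 ratio of 0.15. Among all genes 47.7% were higher in replicate 2, with a median of -0.008. On the authors' RPKM scale, which shifts all genes (median -0.08), 24 of 35 were higher in replicate 2, and 33 again lay above the median of all genes. In wild type, 15 of 35 were higher in replicate 2. Smg6-deficient replicate 2 was also higher for 23 of 36 other ER folding genes and 28 of 34 of ER import and glycosylation. The same held for 25 of 45 other ERAD genes, 18 of 28 of UPR signalling and 8 of 37 cytosolic and mitochondrial chaperones. Markers of other cell types are given beside these counts without a test. Of 18 endoderm markers, 15 rose and 2 fell with Smg6 deficiency, and 15 were higher in Smg6-deficient replicate 2 than in 1. Their summed level was 1972 and 1882 CPM in wild-type and 3842 and 5289 CPM in Smg6-deficient libraries, with Ttr at 0 in wild-type replicate 2. Without Smg6-deficient replicate 1, 1 of these markers fell. Of 15 fibroblast markers, which feeder cells express, 4 were higher (26.7%, against 20.5% of all genes), with sums of 3213 and 3162 and of 4340.3 and 4016 CPM. That number was unstable: it was 11 without wild-type replicate 1, 2 without Smg6-deficient replicate 1, 10 with the replicate block, 7 by DESeq2, 2 with library size alone or a minimum of 50 counts in 2 libraries, and 1 on RPKM. Markers of secretory cells were near 0 except Prdm1, and summed to 23.6 and 19.2 and to 7.56 and 6.23 CPM, with Prss1 at 0 in every library. The part of other cell types in the values of the ER genes was not tested, and in bulk RNA more cells of a type cannot be told apart from more RNA per cell.

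Other genes of the pathway were taken from 5 lists of related functions, set beside the background of 39.7%. Every tested X-linked gene of these lists passed downward, namely Prdx4, Magt1, Ssr4, Bcap31 and Mbtps2. Whether these falls belong to the chromosome or to the pathway was not tested. Of 36 other ER folding genes, 13 rose and 5 fell, with a median log2 fold change of 0.11. Without Smg6-deficient replicate 2, 8 rose, and without replicate 1, 3 fell. Serpinh1, the collagen chaperone Hsp47, stood at 135.1 and 116.8 CPM in wild-type and at 322.4 and 438.3 CPM in Smg6-deficient libraries, a log2 fold change of 1.59 (SE 0.16, edgeR adjusted p = 0.00070). Uggt2, of the glucosyltransferase family that senses glycoprotein folding, rose from 9.59 and 10.5 to 26.0 and 24.5 CPM (1.33, SE 0.10, edgeR adjusted p = 0.00035). Prdx4, the X-linked ER peroxiredoxin, fell by 1.42 on the log2 scale (edgeR adjusted p = 0.00016).

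Of 33 tested genes of protein import into the ER and of N-glycosylation, 3 rose and 9 fell, with a median of -0.15. The X-linked Magt1 and Ssr4, subunits of the oligosaccharyltransferase and of the translocon-associated complex, fell by 1.06 and 0.72 on the log2 scale (edgeR adjusted p = 0.00068 and 0.00096). Sec62, a translocon subunit on chromosome 3, fell from 247.8 ± 3.16 to 157.3 ± 6.09 CPM (SD, n = 2; log2 fold change -0.66, SE 0.078, edgeR adjusted p = 0.0013). The numbers for this list depended on single libraries: 0 rose in edgeR without either Smg6-deficient library, 5 rose without wild-type replicate 1, 5 fell without Smg6-deficient replicate 1, and 15 fell without wild-type replicate 2.

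Of 45 other ERAD genes, 9 rose and 7 fell, with a median of -0.07. Man1b1, a mannosidase that marks misfolded glycoproteins, rose from 79.4 and 81.0 to 144.6 and 143.2 CPM (0.84, SE 0.075, edgeR adjusted p = 0.00051). Ube4b, a ubiquitin chain assembly factor, rose by 0.68 (edgeR adjusted p = 0.0016), and the X-linked Bcap31 fell by 1.05 on the log2 scale (edgeR adjusted p = 0.00036). Only 1 of the 45 fell without Smg6-deficient replicate 1, 3 without replicate 2, and 11 without wild-type replicate 1, where 14 rose.

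Of 28 other genes of UPR signalling, 10 rose and 6 fell, with a median of 0.13. Atf4, the factor translated when Perk and related kinases slow translation, rose from 218.5 and 209.5 to 543.3 and 633.4 CPM (log2 fold change 1.46, edgeR adjusted p = 0.00027). Creb3l1, a membrane-bound relative of Atf6, rose from 13.3 and 12.4 to 23.2 and 26.2 CPM (0.94, SE 0.11, edgeR adjusted p = 0.0012). Mbtps2, the X-linked protease that cuts Atf6, fell by 0.77 on the log2 scale (edgeR adjusted p = 0.00074). Only 1 gene of this list fell without Smg6-deficient replicate 1.

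Chaperones of the cytosol and mitochondria served as a comparison outside the ER. Of 37, 8 rose and 6 fell, with a median of 0.02. Hspa1b and Hspa1a, the inducible Hsp70 genes, rose by log2 fold changes of 2.83 and 2.56 (edgeR adjusted p = 0.00012 and 0.00021), from 3.95 and 3.35 to 27.7 and 24.1 CPM for Hspa1b. They are near-identical copies, so that reads may be split between them. Hsph1, the cytosolic Hsp110, rose from 298.7 and 262.9 to 521.9 and 507.3 CPM (0.87, SE 0.094, edgeR adjusted p = 0.00093). The ER Hsp70, Hspa5, had no call in the same libraries (log2 fold change 0.18, edgeR adjusted p = 0.21). The numbers for this list ranged from 5 to 15 higher and from 0 to 9 lower when single libraries were left out.

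**Figure D5:**
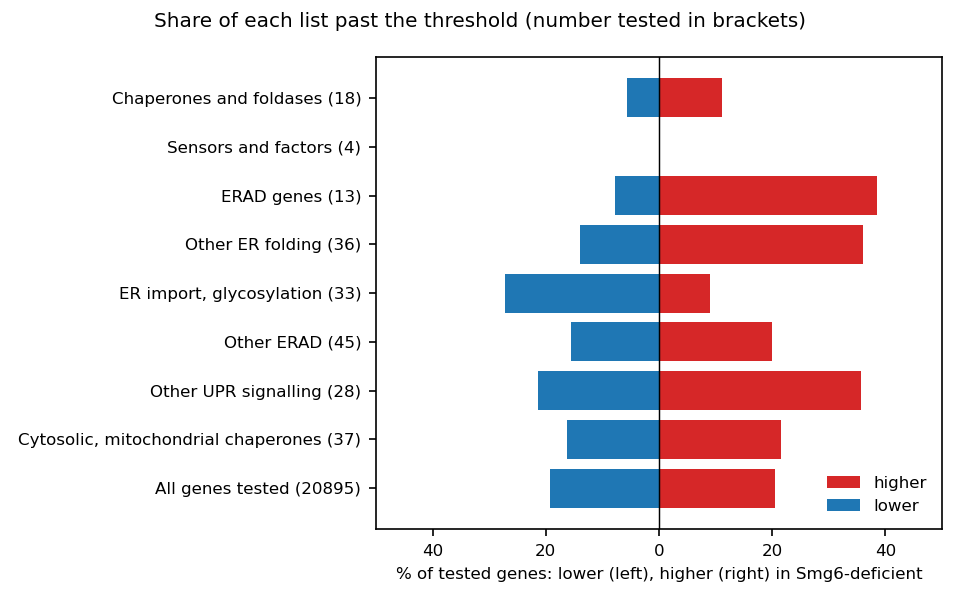
Percentage of tested genes higher (red, right) or lower (blue, left) in Smg6-deficient libraries at an edgeR adjusted p under 0.05, for the 3 roles, the 5 other lists and all 20895 genes. All genes stand at 20.5% and 19.2%, and the sensors at 0 of 4.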

How the data were processed

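RNA of 4 libraries (2 wild-type, 2 Smg6-deficient) was read as single 50-base reads without strand, per the labels. The submitters' processing notes name TopHat2 2.0.9 and mm10 (counter, annotation and handling of multiply aligned reads: not given in the sources used here). The authors deposited raw read counts per gene, and RPKM per gene. Counts were fitted in edgeR 4.0.16 (R 4.3.3; TMM, filterByExpr with a minimum count of 10, quasi-likelihood F test, 2 residual degrees of freedom), and p-values were adjusted by Benjamini-Hochberg over 20895 genes. The fit was tested on simulated data. SE is the log2 fold change divided by the root of F. Counting error is small at these depths, and edgeR draws each gene's spread between 2 libraries toward a trend over all tested genes. The precision thus rests on both. RPKM was used for levels between genes.

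The 35 genes and all lists were chosen with earlier results of these data known. Genes past the threshold, the highest of each role and the sensors are given in full, other members as values or ranges, and from each other list at most 3 genes with the smallest adjusted p. Promoter windows are RefSeq's (GRCm38.p6), gene coordinates and transcripts GENCODE M21's. Protein features, which were planned, were not analysed here. Alternatives were other scalings, filters, DESeq2 1.42.0, limma 3.58.1 (voom on counts, trend on log2 of RPKM plus 1 or 0.1), a replicate block, corrections for gene length and GC content, and each library left out.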

Additional observations from a re-analysis of the deposited data

How the results depend on the processing

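Over 17 alternatives, Herpud1, Derl3, Syvn1, Erlec1 and Herpud2 kept their direction and stayed past the threshold, and P4hb did in 14, Os9 and Sdf2l1 in 12 and Hyou1 in 11. All genes gave 4285 higher and 4004 lower calls, but 2700 and 2643 higher on log2 of RPKM plus 1 and plus 0.1. Leaving out single libraries gave 2805 to 5578 higher and 2300 to 4899 lower. Among chaperones and foldases, 2 rose and 1 fell; 0 rose with either RPKM pseudocount, 1 with each form of the gene length correction (by itself, joined to the replicate block, or to GC content), and 0 to 3 without single libraries. The number that fell was 2 with the length correction and replicate block, 0 with length and GC content, and 0 to 2 without single libraries. Of the sensors, 1 (Atf6) rose with the replicate block, and 0 to 1 without single libraries. Of the ERAD genes, 2 fell (Herpud2 and Derl1) with library size alone and with a minimum of 50 counts in 2 libraries, and 1 to 2 without single libraries, while 4 to 5 rose throughout. The replicate block gave 5074 higher and 4613 lower calls over all genes. Same-numbered libraries shared deviations with a correlation of 0.20 across 20895 genes, but the labels tie nothing to the number. Values of genes that had not passed changed sign, and none passed in the changed direction. With length and GC content, Atf6b was -0.15, Dnajb9 0.21, Hsp90b1 0.080, Sel1l -0.063 and Vcp -0.034. With length alone, Dnajb9 was 0.0049, Edem1 -0.050, Edem3 -0.019, Sel1l -0.087 and Vcp -0.061. With length and the replicate block, Edem1 was -0.052, Edem3 -0.023, Sel1l -0.087 and Vcp -0.058. With library size alone, Edem1 was -0.0065 and Vcp -0.038. Vcp was also -0.024 with the 50-count minimum, -0.016 with upper-quartile scaling, and -0.022 and -0.023 with RPKM plus 1 and 0.1. Without single libraries, the ranges were -0.25 to 0.066 for Dnajb9, -0.022 to 0.14 for Edem1, -0.038 to 0.24 for Edem3, -0.097 to 0.068 for Hsp90b1, -0.012 to 0.25 for Pdia4, -0.15 to 0.057 for Pdia6, -0.0099 to 0.15 for Sel1l and -0.095 to 0.13 for Vcp. Of the genes whose sign changed, Pdia4 and Atf6b passed without wild-type replicate 1, in their original direction. A group left with 1 library was assumed to vary like the other. The cause of these shifts was not tested.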
